A study of Mus musculus with 2 samples.

Results

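The respiratory chain sits in the inner mitochondrial membrane. Complexes I to IV pass electrons to oxygen and pump protons, and complex V, the ATP synthase, uses the proton gradient to make ATP. Most subunits are encoded in the nucleus, translated in the cytoplasm and imported, and several exist as a common and a tissue-restricted form. In cortex, fast-spiking parvalbumin interneurons are known for many mitochondria and a high energy use. The genes described here are the rows of the count table whose symbol starts with Ndufa, Ndufb, Ndufs, Ndufv, Ndufc, Uqcr, Cox4i, Cox5, Cox6, Cox7, Cox8 or Atp5, together with Sdha, Sdhb, Sdhc and Sdhd. They were 93 of 31040 rows, with 92 different symbols and 408817 unique molecular identifiers (UMIs, counted RNA molecules) over all barcodes. By symbol, 36 belong to complex I (NADH dehydrogenase), 4 to complex II (succinate dehydrogenase), 8 to complex III (cytochrome bc1), 20 to complex IV (cytochrome c oxidase, with Ndufa4 and Ndufa4l2 counted there) and 16 to complex V. The other 9 are 8 Ndufaf genes, which help to assemble complex I, and Atp5s, and they are called assembly factors below. No symbol in the table marked a mitochondrially encoded gene, and those subunits are not analysed here.

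The data are single-nucleus RNA counts from prefrontal cortex of wild-type male C57BL/6 mice aged 2 months. The METH group received methamphetamine at 5 mg/kg and the Control group saline, both by intraperitoneal injection over 14 days, and all mice were anaesthetised with chloral hydrate before tissue was taken. Each group was 1 library made from 3 mice, so values of single mice are not separate. Barcodes end in 1 of 2 numbers, called library 1 and library 2 here. Nothing in the labels or files says which is METH and which is Control, so the treatments were not compared, values are given for each library, and no p-value was computed.

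Library 1 held 9890 barcodes with a median of 2876 UMIs and library 2 held 10876 with a median of 2977, and 154 barcode sequences occurred in both. After barcodes under 500 genes and doublets were removed, 18095 nuclei remained. Classes were named from marker genes, so each name below means nuclei like that type. Of these, 8070 carried markers of cortical excitatory neurons. Another 1018, 24.8% of them from library 1, carried markers of striatal projection neurons, a type known from the striatum and not from the labelled cortex. Levels are UMIs of a gene or list per 1000000 UMIs of the class (CPM), written as library 1 and then library 2. Intervals are 95% exact intervals of counting error only. Levels of different genes are not compared, because 3′ UMI counts were not scaled by length. In nuclei, fewer transcripts of a gene and a larger amount of other RNA cannot be told apart.

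Regulatory sequences of the members were read from the RefSeq promoter windows (GRCm38.p6, from 250 bases before a start to 50 after it), which matched 74 of the 92 symbols. Letters were searched on both strands. The site of nuclear respiratory factor 1 (NRF1), a regulator named for this gene family, was taken as GCGC, any 2 bases and GCGC. It stood in 28.4% of the members with a window (21 of 74), in 8.83% of all matched genes of the table and in 12.1% of cytosolic ribosomal protein genes. AAGATGGC, a YY1 site, stood in 13.5% of members, 3.46% of all genes and 9.09% of the ribosomal protein genes. AAGGTCA, a site of estrogen-related receptors (ERR), stood in 10.8%, 4.97% and 7.58%, and CCGGAAGT, a site of ETS factors such as GABP, in 6.76%, 5.36% and 18.2%. The stretches below hold the NRF1 letters before the RefSeq start of Cox6a1, Sdha and Atp5c1, 3 members whose levels by class are given later. They are read 5′ to 3′ along the minus strand, on which these genes lie, with the searched letters in capitals.
Cox6a1, chr5:115349101-115349130: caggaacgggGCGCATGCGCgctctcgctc
Cox6a1, chr5:115349056-115349085: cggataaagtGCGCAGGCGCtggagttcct
Sdha, chr13:74350319-74350348: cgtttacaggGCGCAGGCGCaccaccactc
Sdha, chr13:74350276-74350305: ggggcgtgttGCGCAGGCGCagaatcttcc
Sdha, chr13:74350241-74350260: gcgactcggtGCGCAAGCGC
Atp5c1, chr2:10080433-10080459: ctgagctcccGCGCACGCGCactgagt
The middle bases, which the search left free, are the only ones within the capitals that differ between these stretches. In the gene annotation used for spans, the Atp5c1 stretch and the last Sdha stretch lie inside the gene. The middle Sdha stretch crosses the annotated start. A match describes letters in a window and was not tested for binding.

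Inhibitory neurons carried more respiratory chain RNA per UMI than excitatory neurons in both libraries. Summed over all members, the level was 5793 and 8706 CPM in inhibitory, 4616 and 7897 CPM in striatal projection and 3866 and 6304 CPM in excitatory neurons. Glial classes gave higher summed levels than excitatory neurons: 8125 and 14072 CPM in astrocytes, 6021 and 14693 CPM in oligodendrocytes, 5891 and 11055 CPM in oligodendrocyte precursors, 5732 and 10367 CPM in differentiating oligodendrocytes and 7143 and 16801 CPM in microglia. Glial nuclei were shallower, with a median of 811 UMIs in oligodendrocytes and 695.5 in microglia against 4376 in excitatory neurons. Inhibitory neurons had a median of 2896 UMIs. Excitatory nuclei of 2000 to 4000 UMIs had 4243 and 7241 CPM, still below the levels of inhibitory neurons.

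RNA freed from broken cells enters every droplet. The level it could give was bounded from Slc17a7, the vesicular glutamate transporter of excitatory neurons, in classes that should lack it, and from myelin genes in excitatory neurons. The bound is an upper limit, since for each gene it takes the class with the least RNA of that gene as if all of it were free. For the summed members it came to 2119 and 4662 CPM in excitatory neurons, below the measured levels. It was 6755 and 16093 CPM in oligodendrocytes and 9179 and 17083 CPM in microglia, above the measured levels in each library. In astrocytes it was 10995 and 12245 CPM, so the measured level passed it in library 2 and not in library 1. The bound is scaled from the Slc17a7 level due to free RNA, which was 101 and 200 CPM in inhibitory neurons. In excitatory neurons the expected value was 69.2 and 143 CPM. The difference in summed level between these 2 classes was not tested with free RNA subtracted.

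**Figure D1:**
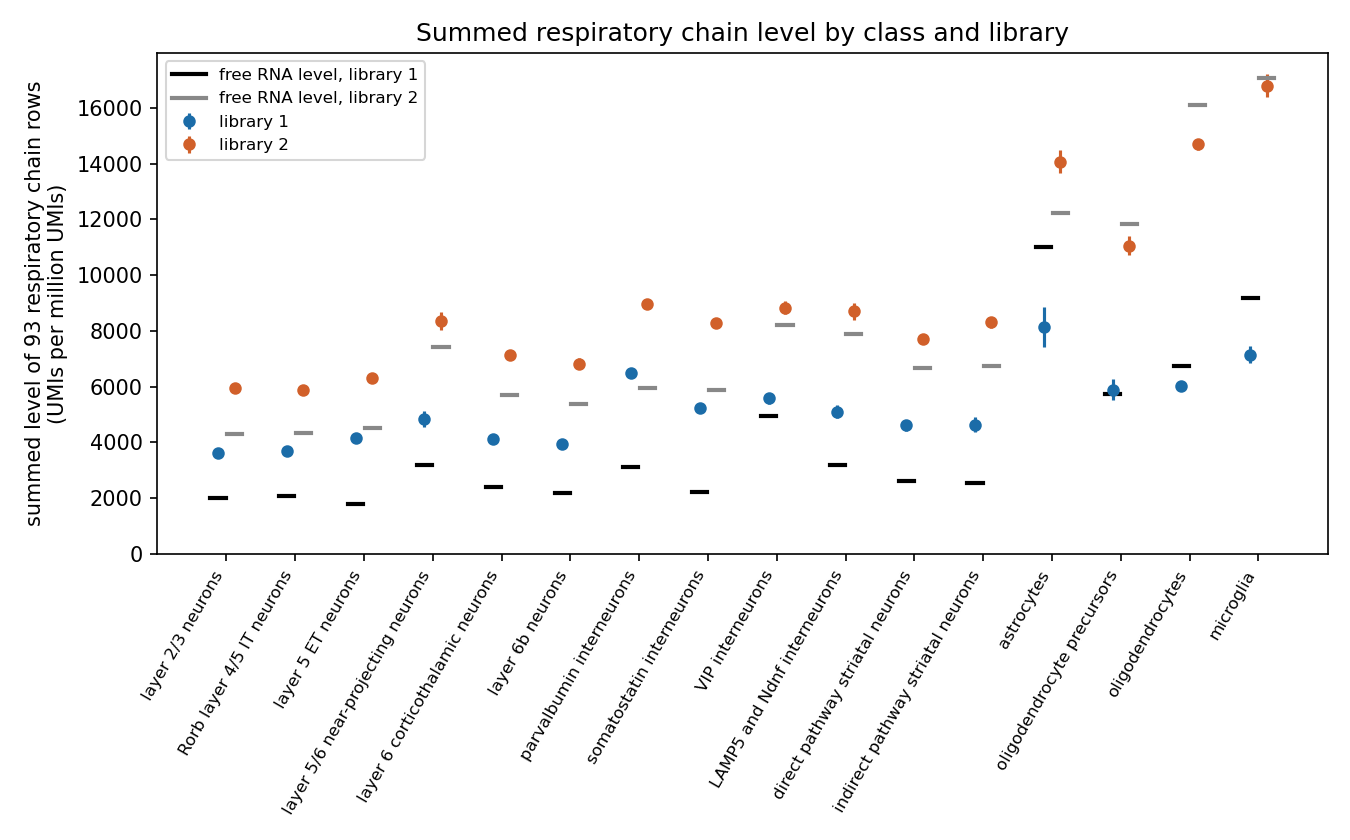
Summed level of the 93 rows (vertical axis, CPM) for 12 neuronal subclasses and 4 glial classes, with a point per library, bars for the 95% Poisson interval and short lines for the free RNA level of that library. Parvalbumin interneurons are the highest neuronal subclass in each library, at 6485 and 8975 CPM, and oligodendrocytes and microglia lie under their free RNA lines.

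Summed over named classes, 86 of the 93 rows reached 50 UMIs. In excitatory neurons 78 of the 86 exceeded the free RNA level, beside 81.4% of all genes, and in inhibitory neurons 76 did, beside 67.1%. The count was 53 in striatal projection neurons (54.9% of all genes), 15 in astrocytes (15.2%), 6 in oligodendrocyte precursors (22.4%), 4 in differentiating oligodendrocytes (17.4%), 4 in neuroblasts and dividing progenitors (12.7%), 2 in oligodendrocytes (12.5%) and 2 in microglia (11.7%). In at least 1 of 9 broad classes 84 exceeded it, beside 92.5% of all genes. The exceptions were Atp5e, the epsilon subunit of complex V, with 2523 UMIs in named classes, and Ndufa1, a small subunit of complex I, with 2262. For most members, expression in glia was therefore not detectable above free RNA at this depth.

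Few members had a class that was called clear by the rule used here. A member's highest class was taken among those where it exceeded free RNA, and it was called clear where its ratio to the class ranking next had an interval without 1. For 62 of the 84 members with such a class, another class where the member did not exceed free RNA had a higher level. Over all genes this was so for 5353 of 14566. Such a gene could not be called clear, so the rule limited members more often than genes in general. With free RNA subtracted from the levels 29 members were clear, and no share over all genes is given for that setting. Over the 9 broad classes 3 of 86 members were clear, beside 24.6% of all genes. Atp5c1, the gamma subunit that turns inside the ATP synthase, was at 97.9 and 124 CPM in astrocytes and at 31.7 and 34.9 CPM in excitatory neurons. Its pooled ratio to the next class, oligodendrocyte precursors, was 2.06 (1.29 to 3.33). Sdha, the catalytic subunit of complex II, was at 326 and 206 CPM in astrocytes and 184 and 168 CPM in inhibitory neurons, with a ratio of 1.28 (1.02 to 1.58). Ndufb11, an accessory subunit of complex I, was at 203 and 264 CPM in neuroblasts and dividing progenitors, 1.61 times (1.09 to 2.36) its level in astrocytes. These calls rest on few UMIs, with 6 of Atp5c1 and 20 of Sdha in the 51 astrocytes of library 1, and 8 of Ndufb11 in the 40 neuroblasts. None of the 3 was left when nuclei needed 1000 genes, and no member was clear in each library separately.

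Among the 12 neuronal subclasses, parvalbumin interneurons had the highest summed level, 6485 CPM (6354 to 6618) in library 1 and 8975 CPM (8829 to 9124) in library 2. VIP interneurons followed at 5580 and 8833 CPM, and in library 2 their interval of 8612 to 9059 overlapped that of the parvalbumin class. Somatostatin interneurons were at 5243 and 8273 CPM and LAMP5 and Ndnf interneurons at 5094 and 8696 CPM. Near-projecting neurons of layers 5 and 6 led the excitatory subclasses at 4829 and 8351 CPM, followed in library 1 by layer 5 extratelencephalic neurons at 4142 CPM and in library 2 by layer 6 corticothalamic neurons at 7124 CPM. Layer 2/3 neurons, at 3619 and 5962 CPM, and Rorb neurons of layers 4 and 5, at 3700 and 5889 CPM, were lowest. In VIP interneurons the free RNA level was 4927 and 8204 CPM, close to the measured level, while in the parvalbumin class it was 3104 and 5960 CPM. In near-projecting neurons the Slc17a7 level expected from free RNA, from which this bound is scaled, was 104 and 228 CPM. That was the highest of the excitatory subclasses, against 57.8 and 139 CPM in layer 5 extratelencephalic and 65.7 and 132 CPM in layer 2/3 neurons. The lead of near-projecting neurons was not tested with free RNA subtracted. Above free RNA were 74 of 86 members in parvalbumin interneurons, beside 63.8% of all genes, and 74 in somatostatin interneurons, beside 68.9%. The count was 30 in LAMP5 and Ndnf (44.4%) and 23 in VIP interneurons (38.8%). Among excitatory subclasses it was 73 in Rorb (81.4%), 69 in layer 2/3 (78.5%), 63 in layer 5 extratelencephalic (73.2%), 63 in layer 6 corticothalamic (68.2%), 49 in layer 6b (61.1%) and 23 in near-projecting neurons (41.4%). In direct-pathway and indirect-pathway striatal neurons 43 (54.3%) and 42 (47.4%) exceeded it. Per UMI of cytosolic ribosomal protein genes, the parvalbumin class held 2.63 and 2.06 member UMIs, layer 5 extratelencephalic neurons 2.28 and 1.90, and somatostatin interneurons 1.94 and 1.76.

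Single members were then ranked over the subclasses, again only among those where a member exceeded free RNA. With the libraries pooled, 48 members were highest in parvalbumin interneurons by this rule, clear or not, beside 13.1% of all genes. For 13 of the 48 a subclass where the member did not exceed free RNA had a higher level, beside 217 of 1807 genes. So 35 of 85 members were at their highest level of all subclasses in parvalbumin interneurons, beside 1590 of 13747 genes. The 13 could not be called clear. Cox5b, Cox7a2, Cox7c, Ndufb8, Ndufc2 and Atp5e were among the 13, with a higher level in VIP interneurons. By the rule, parvalbumin interneurons were highest for 41 of 82 members in library 1 alone and for 36 of 79 in library 2 alone. No share over all genes is given for a single library. For 25 of 77 members parvalbumin interneurons were highest in both, beside 6.08% of all genes. By complex, the pooled counts by the rule are given out of the members that exceeded free RNA in any subclass. They were 15 of 35 in complex I, 4 of 4 in complex II and 4 of 8 in complex III. The counts were 11 of 13 in complex IV, 8 of 16 in complex V and 6 of 9 assembly factors. A clear highest subclass was called for 9 of 86 members, beside 14.4% of all genes, and for 8 of the 9 it was the parvalbumin class, beside 2.28%. These were Cox6a2, Cox7b, Cox5a, Uqcrc1, Atp5g1, 1 of the 2 Atp5o rows, Ndufaf2 and Ndufaf5. In library 1 alone Cox7b, Cox5a, Uqcrc1 and Ndufaf2 were clear, in library 2 alone Cox6a2 was, and none was clear in each.

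Somatostatin interneurons offered the comparison of closest depth, with a median of 3133 UMIs per nucleus against 3194 in parvalbumin interneurons. The summed level was 1.24 times (1.20 to 1.28) higher in the parvalbumin class in library 1 and 1.08 times (1.06 to 1.11) in library 2. Among 80 members with at least 50 UMIs over both classes in each library, 47 had a ratio above 1 in each, beside 36.1% of all genes, and 6 had a ratio below 1 in each, beside 32.2%. The 6 were Ndufa1, Ndufa12, Ndufc1, Uqcr11, Atp5d and Ndufaf3. Ratios above 1 in each library were found for 16 of 35 complex I members, 3 of 4 of complex II, 4 of 8 of complex III, 8 of 12 of complex IV, 11 of 14 of complex V and 5 of 7 assembly factors. Beyond counting error, with the libraries pooled, 24 of 82 members were higher in parvalbumin interneurons, beside 16.1% of all genes, and 0 were lower, beside 14.2%. Among them were Ndufa2, Ndufa8, Ndufa11, Ndufs1 and Ndufs4 of complex I, Uqcrc1, Uqcrc2 and Uqcrq of complex III, Cox5a, Cox6a1, Cox6a2, Cox6c and Cox7b of complex IV, Atp5b, Atp5g1, Atp5g3, Atp5j2, Atp5k, Atp5l and 1 Atp5o row of complex V, and Ndufaf2, Ndufaf4 and Ndufaf5. None belonged to complex II. Ndufa8 rested on library 1, with a ratio of 3.05 there and 1.01 in library 2. In library 1 alone 21 of 80 were higher, beside 14.6% of all genes, and 0 lower, beside 12.8%. In library 2 alone 12 of 82 were higher, beside 13.1%, and 0 lower, beside 11.6%. In library 1, where the difference was larger, Slc17a7, a mark of free RNA in these classes, was also 1.41 times higher in parvalbumin than in somatostatin interneurons, against 1.01 times in library 2. Its part in the member ratios was not tested.

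**Figure D2:**
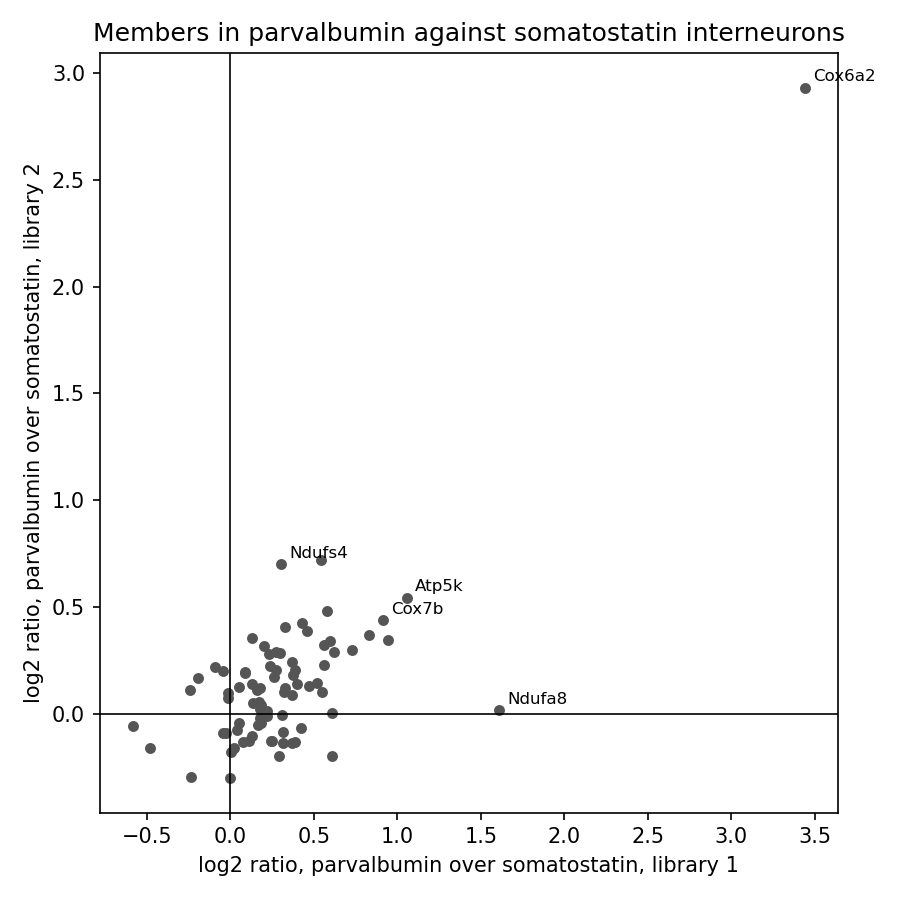
Each point is 1 of 80 members, with the log2 ratio of its level in parvalbumin over somatostatin interneurons in library 1 (horizontal axis) and in library 2 (vertical axis); lines mark a ratio of 1. The upper right part holds 47 points, the lower left holds 6, and Cox6a2 stands far from the rest with ratios of 10.8 and 7.63.

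Against the other interneurons the summed difference was smaller in library 2. The parvalbumin class was 1.16 and 1.02 times the VIP class and 1.27 and 1.03 times the LAMP5 and Ndnf class, and in library 2 both intervals included 1. Against VIP interneurons 32 of 75 members had a ratio above 1 in each library, beside 40.4% of all genes, and 16 below 1, beside 30.7%. Pooled, 19 of 82 were higher beyond counting error (18% of all genes) and 5 lower (15.1%). Against LAMP5 and Ndnf interneurons 37 of 70 were above 1 in each library (34.4%) and 4 below (33.7%), and pooled 16 of 82 were higher (13.5%) and 1 lower (13.6%).

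Pairs of projection neurons were compared in the same way. Layer 5 extratelencephalic neurons, the large output cells of the cortex, were 1.14 and 1.05 times layer 2/3 neurons in summed level. Of 81 members 38 were above 1 in each library (36.2% of all genes) and 15 below (37.7%), and pooled 17 of 84 were higher beyond counting error (19.8%) and 7 lower (21.9%). Indirect-pathway striatal neurons were 1.01 and 1.08 times direct-pathway neurons. Only 23 members had enough UMIs in both libraries there, with 9 above 1 in each (27.4%) and 3 below (29.3%), and pooled 7 of 80 were higher (4.69%) and 1 lower (6.14%).

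The member that set parvalbumin interneurons apart most was Cox6a2, the form of complex IV subunit VIa known from heart and skeletal muscle. It stood at 64.3 CPM (51.8 to 78.8, from 92 UMIs) and 70.9 CPM (58.5 to 85.3, from 113 UMIs) in parvalbumin interneurons. LAMP5 and Ndnf interneurons had 36.6 and 39.5 CPM and VIP interneurons 21.1 and 20.5 CPM. Somatostatin interneurons had 5.93 and 9.29 CPM, with a free RNA level of 4.62 and 9.52 CPM, and excitatory neurons 3.47 and 6.98 CPM, no more than the free RNA level of 4.44 and 7.55 CPM. The value was highest in the parvalbumin class in each library, and there its interval overlapped that of the LAMP5 and Ndnf class. By its ratio to the next subclass it was clear in library 2 and not in library 1. Pooled, it was 1.78 times (1.18 to 2.79) the LAMP5 and Ndnf level and 8.91 times (5.50 to 15.3) the somatostatin level.

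Cox6a1, the common form, differed less between the classes, with a pooled parvalbumin over somatostatin ratio of 1.23 (1.10 to 1.38). It was at 177 and 348 CPM in parvalbumin, 154 and 279.5 CPM in somatostatin and 108 and 247 CPM in excitatory neurons. Of the UMIs of both forms, Cox6a2 made up 26.6% (22.0 to 31.6) and 16.9% (14.1 to 19.98) in parvalbumin interneurons. The share was 18.5% and 9.72% in LAMP5 and Ndnf, 11.7% and 5.36% in VIP and 3.70% and 3.22% in somatostatin interneurons, and 3.11% and 2.75% in excitatory neurons. The lower share in library 2 went with a higher Cox6a1 level there, while the Cox6a2 levels of the 2 libraries had overlapping intervals. After subtraction of free RNA from both forms, the pooled share rose from 20.2% to 40.1%. When the clusters were made at a finer resolution of 1.5, the share was 14.9%.

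Counted per nucleus, Cox6a2 was found in few nuclei. After thinning to 1000 UMIs, which left out 2 parvalbumin, 0 somatostatin and 51 excitatory nuclei, 7.13% (5.53 to 9.04) of 883 parvalbumin nuclei had a UMI. The share was 0.972% of 720 somatostatin and 0.586% of 8019 excitatory nuclei, and 1.59% of 755 oligodendrocytes, a class with a Cox6a2 level within its free RNA level. Unthinned, the shares were 17.7%, 2.36%, 2.34% and 1.34%.

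**Figure D3:**
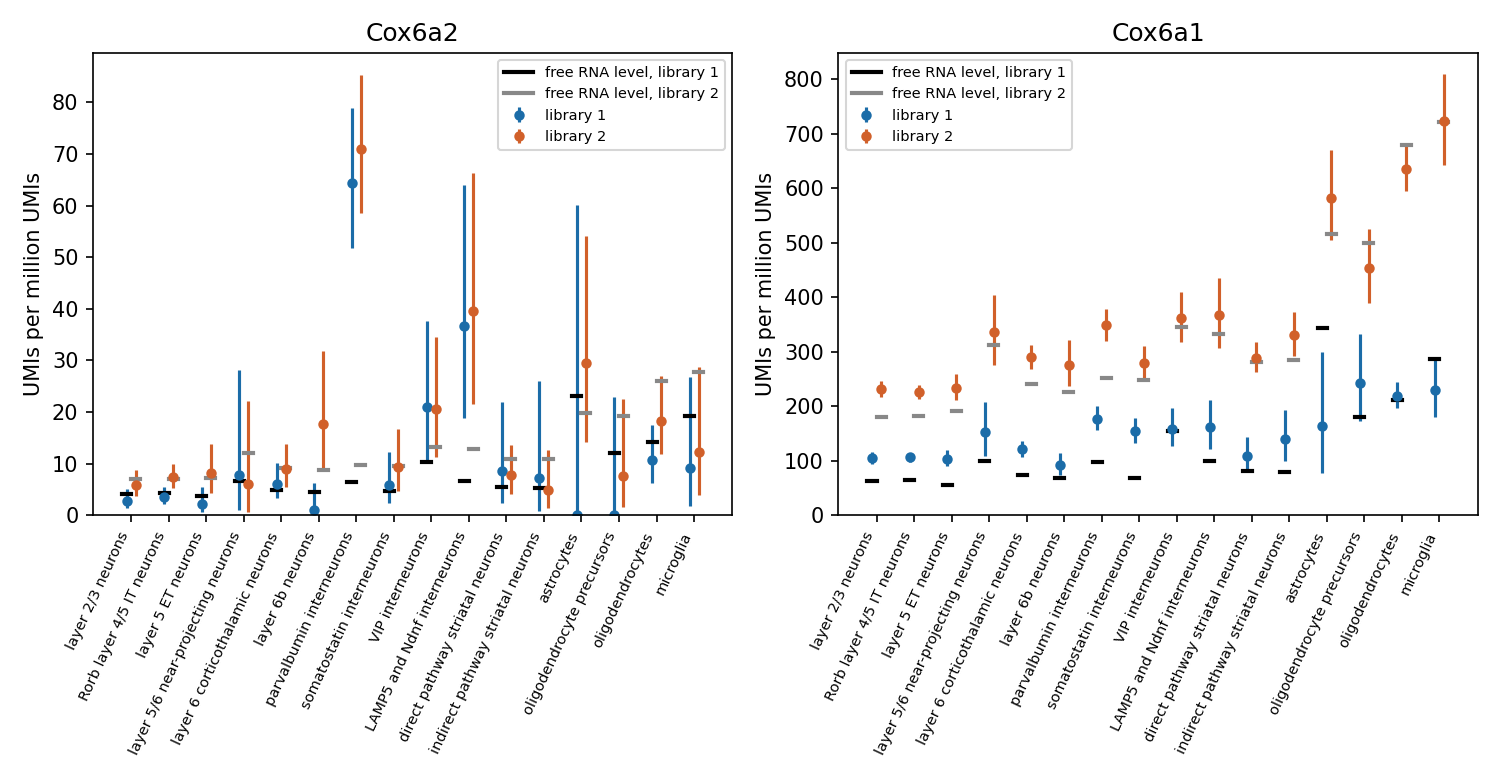
Levels of Cox6a2 (left) and Cox6a1 (right) in CPM by class, with a point per library, bars for the 95% Poisson interval and short lines for the free RNA level. Cox6a2 is highest in parvalbumin interneurons at 64.3 and 70.9 CPM, and Cox6a1 has UMIs in all classes shown, above the free RNA level in 3 of 9 broad classes, and is higher in library 2 than in library 1.

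Other complex IV members differed less. Cox7b, a small accessory subunit, was at 276 and 257 CPM in parvalbumin and 146 and 190.0 CPM in somatostatin interneurons, a pooled ratio of 1.58 (1.40 to 1.79). Cox5a, which lies on the matrix side of the enzyme, was at 84.6 and 86.6 CPM against 55.9 and 68.4 CPM. Both were higher in the parvalbumin class in each library. Cox8a, the member with most UMIs, was at 183 and 466 CPM against 162 and 459 CPM, and Ndufa4, once assigned to complex I, at 110 and 245 CPM against 130 and 227 CPM. These pooled ratios, 1.07 and 1.02, lay within counting error of 1.

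In complex I, Ndufs1, which carries iron-sulfur clusters of the electron path, was at 157 and 128 CPM in parvalbumin and 117 and 95.4 CPM in somatostatin interneurons. Ndufs4, an accessory subunit needed for a stable complex, was at 166 and 156 CPM against 135 and 96.3 CPM. Both were higher beyond counting error with the libraries pooled, by 1.34 times (1.14 to 1.57) and 1.40 times (1.20 to 1.62). Ndufs3, a core subunit, was at 131 and 142 CPM against 116 and 131 CPM, and Ndufb3, an accessory subunit, at 116 and 111 CPM against 76.2 and 128 CPM. Neither passed, and Ndufb3 changed direction between the libraries. Ndufv3, an accessory subunit of the NADH-oxidising part, was the only member clear in another subclass, LAMP5 and Ndnf interneurons, at 73.3 and 161 CPM. Its pooled ratio to the next subclass, indirect-pathway striatal neurons, was 1.39 (1.02 to 1.89).

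The 4 complex II genes were highest in parvalbumin interneurons with none clear. Sdha was at 189 and 171 CPM there and 182 and 157 CPM in somatostatin interneurons, and Sdhb, the iron-sulfur subunit, at 98.5 and 89.8 CPM against 76.2 and 98.8 CPM. The membrane anchors were at 59.4 and 69.0 CPM against 49.1 and 56.6 CPM for Sdhc and at 28.7 and 30.1 CPM against 23.7 and 26.2 CPM for Sdhd. None of the 4 differed between the classes beyond counting error.

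In complex III, Uqcrc1, a core protein, was at 150 and 133 CPM in parvalbumin and 90.6 and 108 CPM in somatostatin interneurons. It was also 1.32 times (1.15 to 1.52) its level in layer 5 extratelencephalic neurons, the next subclass. Uqcr11, a small subunit, lay lower in parvalbumin interneurons in both libraries, at 36.3 and 126 CPM against 50.8 and 141 CPM, within counting error when pooled. The small subunits Uqcr10, at 139 and 210 CPM against 127 and 226 CPM, and Uqcrq, at 122 and 205 CPM against 94.8 and 193 CPM, had pooled ratios of 0.999 and 1.15.

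In complex V, Atp5b, the catalytic beta subunit, was at 192 and 290 CPM in parvalbumin and 157 and 238 CPM in somatostatin interneurons, a pooled ratio of 1.23 (1.10 to 1.39). Atp5g1, 1 of 3 genes for the c subunit of the rotor ring, was at 198 and 259 CPM against 169 and 213 CPM, with a ratio of 1.21 (1.07 to 1.36). Atp5l, subunit g, was 1.23 times (1.07 to 1.41) higher, and Atp5h, subunit d, was at 93.6 and 176 CPM against 80.4 and 174 CPM without a difference beyond counting error. The clear Atp5o row (ENSMUSG00000116933, chromosome 16, 91684398 to 91926982, minus strand, GRCm38) was at 51.7 and 44.6 CPM against 35.6 and 27.0 CPM. All of its exonic bases are shared on the same strand with the other Atp5o row or with Donson, so its counts are uncertain.

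Among the assembly factors, Ndufaf5 was at 44.0 and 40.8 CPM in parvalbumin and 22.9 and 32.1 CPM in somatostatin interneurons, and Ndufaf2 at 81.1 and 69.7 CPM against 55.0 and 55.7 CPM. Ndufaf4 was at 108 and 97.9 CPM against 72.0 and 70.1 CPM. All 3 were higher beyond counting error when pooled. Ndufaf7, at 145 and 107 CPM against 145 and 121 CPM, and Ndufaf3, at 41.9 and 42.1 CPM against 43.2 and 44.8 CPM, did not differ beyond it.

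The remaining tissue-restricted forms were rare. Cox6b2, known from testis, had 29 and 32 UMIs in oligodendrocytes, or 19.6 and 23.5 CPM, above a free RNA level of 3.90 and 9.79 CPM. In differentiating oligodendrocytes it was at 30.3 and 47.3 CPM from 2 and 6 UMIs, and in astrocytes at 16.3 and 35.3 CPM from 1 and 12 UMIs. Of the UMIs of Cox6b1, the common form, and Cox6b2, it made up 14.0% and 4.30% in oligodendrocytes against 1.11% and 1.20% in excitatory neurons. Cox7a1, the muscle form beside Cox7a2, had 55 UMIs over all barcodes. Cox8b and Cox8c, beside Cox8a, had 14 and 1. Ndufa4l2, the second form beside Ndufa4, had 53 and Cox4i2, known from lung, had 60. In an unnamed cluster of 223 nuclei led by Ttr and haemoglobin genes, which scored close on smooth muscle and endothelial markers, Ndufa4l2 had 15 UMIs and Cox4i2 had 5. All came from the 194 nuclei of library 2, at 51.4 CPM (28.8 to 84.8) and 17.1 CPM (5.57 to 40.0), while the 29 nuclei of library 1 had none.

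Cox7a2l, grouped with Cox7a1 and Cox7a2 by symbol only, made up 36.7% and 25.5% of the UMIs of these genes in excitatory neurons. Atp5g1 made up 64.3% and 53.5% of the c subunit UMIs of Atp5g1, Atp5g2 and Atp5g3 in excitatory neurons and 42.1% and 44.9% in microglia, where 2 of 86 members exceeded the free RNA level. Cox4i1, the common form of complex IV subunit IV, and Ndufa13, a complex I subunit, are listed at 0 UMIs in every barcode. Neither shares exonic bases on its strand with another gene in the annotation, and the zeros are not read as lack of expression.

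The share of each complex in the summed level was compared between parvalbumin and excitatory neurons. Complex I made up 33.3% (32.3 to 34.2) and 31.6% (30.8 to 32.4) in parvalbumin interneurons and 34.8% (34.4 to 35.1) and 33.0% (32.8 to 33.3) in excitatory neurons, without overlap of the intervals in either library. Complex IV made up 21.5% (20.7 to 22.4) and 26.0% (25.3 to 26.7) in parvalbumin interneurons. In excitatory neurons complex IV made up 19.4% in library 1 and 25.6% in library 2, complex II 6.11% and 3.96%, and assembly factors 8.81% and 4.99%.

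Of 13 listed transcriptional regulators of the chain, Ppargc1a and Esrrg had a clear highest subclass. Ppargc1a, the coactivator PGC-1alpha, was at 300 (272 to 330) and 296 (270 to 324) CPM in parvalbumin interneurons, 232 and 223 CPM in layer 5 extratelencephalic neurons and 110 and 133 CPM in somatostatin interneurons. It was at 24.4 and 28.2 CPM in LAMP5 and Ndnf interneurons, the second highest subclass for Cox6a2. Esrrg, an estrogen-related receptor that PGC-1alpha coactivates, was at 659 and 529 CPM in parvalbumin interneurons, 332 and 385 CPM in near-projecting neurons, 378 and 280 CPM in layer 5 extratelencephalic neurons and 174 and 172 CPM in somatostatin interneurons. It was the parvalbumin class for both, with ratios to the next subclass of 1.31 (1.19 to 1.44) and 1.63 (1.42 to 1.89).

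The other 11 regulators had no clear subclass. By the same rule, highest in parvalbumin interneurons were Tfam, which packages mitochondrial DNA, Tfb2m and Polrmt, which transcribe it, and Esrra. Gabpb1 and Yy1 were highest in somatostatin interneurons, Nrf1 in layer 2/3, Gabpa in near-projecting, Tfb1m in layer 5 extratelencephalic, Ppargc1b in indirect-pathway striatal and Pprc1 in layer 6b neurons. Nrf1 itself, whose letters are shown above, was at 64.3 and 53.4 CPM in parvalbumin and 66.9 and 50.7 CPM in somatostatin interneurons. Over broad classes Tfb1m was clear in microglia, at 101 and 78.9 CPM against 4.18 and 3.42 CPM in excitatory neurons, and Ppargc1b in striatal projection neurons.

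**Figure D4:**
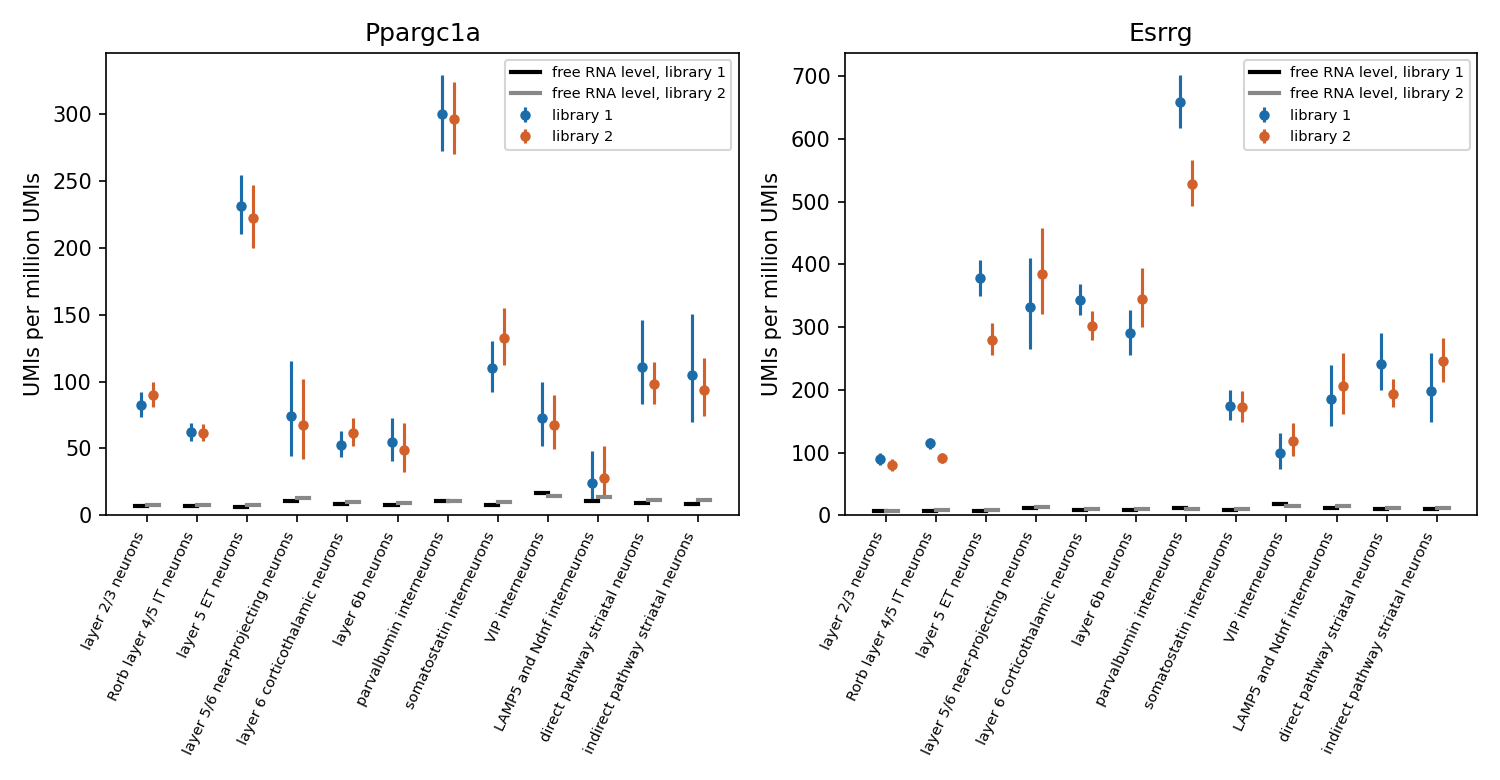
Levels of Ppargc1a (left) and Esrrg (right) in CPM in 12 neuronal subclasses, with a point per library, bars for the 95% Poisson interval and short lines for the free RNA level. Both are highest in parvalbumin interneurons, at 300 and 296 CPM and at 659 and 529 CPM.

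Other gene lists gave larger and smaller differences. Summed, the parvalbumin over somatostatin ratio was 2.29 and 1.93 for the 13 regulators and 1.31 and 1.17 for the 11 without Ppargc1a and Esrrg, a split made after their values were seen. It was 1.40 and 1.23 for 16 citric acid cycle genes, 1.32 and 1.18 for assembly factors outside the symbol rule and 1.14 and 1.05 for glycolysis genes. It was 1.12 and 1.01 for mitochondrial ribosomal proteins and 0.914 and 0.927 for cytosolic ones. The list of outside assembly factors also held Cyc1 and Cycs, which encode cytochromes of the chain and not assembly factors. In the parvalbumin class 4 of 16 citric acid cycle genes, 4 of 30 genes of that list and 1 of 16 glycolysis genes were clear, beside the 2.28% of all genes. Of the ribosomal protein genes, 2 of 75 mitochondrial and 0 of 82 cytosolic ones were clear there.

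The summed level was higher in library 2 in every named class. The ratio of the summed levels was 1.63 (1.62 to 1.65) in excitatory neurons, 1.38 (1.35 to 1.42) in parvalbumin interneurons, 2.44 (2.38 to 2.50) in oligodendrocytes and 2.35 (2.24 to 2.47) in microglia. In excitatory neurons 75 of 86 members were higher, with a median log2 difference of 0.68, while the median over 14575 genes was 0.00. Among members the difference was larger for genes with a short span on the chromosome. In excitatory neurons the median was 0.85 for 55 members spanning up to 10 kb, 0.27 for 24 between 10 and 30 kb and -0.07 for 7 longer ones, beside 0.09, 0.01 and -0.03 over all genes of these spans. In oligodendrocytes it was 1.45, 0.74 and 0.39, beside 0.21, -0.01 and -0.05. Other RNA moved too: in excitatory neurons cytosolic ribosomal protein genes were 1.73 times higher in library 2 and Malat1, a nuclear RNA, stood at 0.631 times its level in library 1. With 1 library each, treatment, preparation and free RNA cannot be told apart as sources of this difference.

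**Figure D5:**
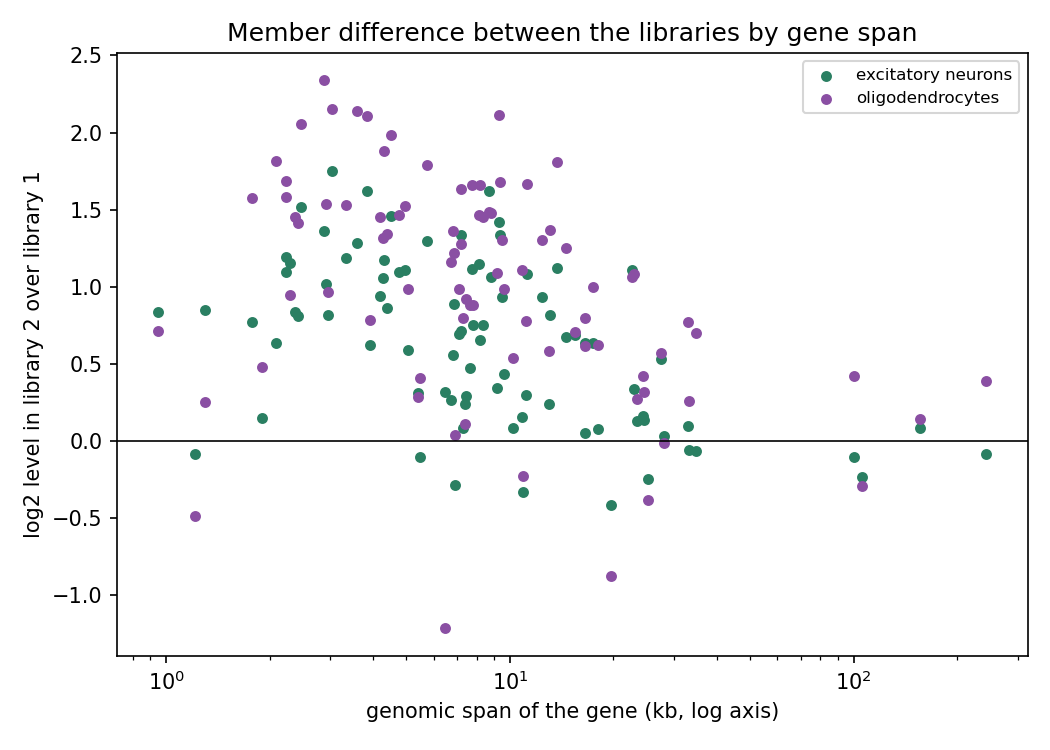
Log2 level of each member in library 2 over library 1 (vertical axis, 1 CPM added to each level) against the span of the gene (horizontal log axis, kb) in excitatory neurons and oligodendrocytes. Short genes lie highest, with medians of 0.85 and 1.45 up to 10 kb, and genes over 30 kb have medians of -0.07 and 0.39.

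The summed level was also read by depth. In excitatory neurons it was 7763 CPM in the 26 nuclei of 500 to 1000 UMIs and 3651 CPM in those of 8000 or more in library 1, and 14298 and 5110 CPM in library 2. In parvalbumin interneurons of 2000 to 4000 UMIs it was 6743 and 9371 CPM and in somatostatin interneurons of the same depth 5277 and 8559 CPM, and at 4000 to 8000 UMIs it was 6107 and 8024 CPM against 5015 and 7376 CPM. In library 1 the order of these classes was the reverse at 1000 to 2000 UMIs, with 6427 CPM (5746 to 7166) in 30 parvalbumin nuclei and 6732 CPM (5971 to 7562) in 24 somatostatin nuclei, whose intervals overlap.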

How the data were processed

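The authors deposited a matrix of raw UMI counts of genes by barcodes from 10x 3′ libraries of nuclei isolated on an iodixanol gradient, per the labels' protocols. Cell Ranger 1.3.0, Seurat 3.1.4 and mm10 appear in the submitters' processing notes, while per the file headers the matrix was written by software version 3.1.0. Counts depend on how nuclear, intron-bearing RNA was assigned to genes, which is not given in the sources used here. About 8000 nuclei were loaded per library, per the labels, and the matrix holds 20766 barcodes and 66566100 UMIs.

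Barcodes of at least 500 genes were kept. Scrublet (Scanpy 1.11.5) marked 9.46% of library 1 and 5.77% of library 2 as doublets, which were removed. Members were left out of the 3000 variable genes used for 50 principal components and Leiden clustering at resolution 1. Excitatory and inhibitory subclasses were clusters of that round, and only striatal subclasses came from a further round at resolution 0.5. A cluster was named where at least 3 markers were detected and its score was 1.5 times that of the next list; 1566 nuclei stayed unnamed. Counts were summed per class and library. Intervals were exact (Poisson, Clopper-Pearson, and conditional binomial for ratios), computed with SciPy 1.17.1. Calls were made for classes of at least 100 nuclei and genes of at least 50 UMIs. The clear calls and the ratio intervals were tested on simulated counts with fixed subclasses and no free RNA. Doublet removal, clustering, naming and the free RNA level were not tested in this way.

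The members and lists were chosen with earlier results of these data known, and details of naming and of the free RNA level were set after the data were seen. Genes were named by rule: all regulators and isoform sets, the 4 members with most UMIs in each complex, all clear calls, and members under 50 UMIs or above free RNA in no class. Members of the comparison of parvalbumin with somatostatin interneurons outside that rule were named after their values were seen.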

Additional observations from a re-analysis of the deposited data

Results flagged for a closer look

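Barcodes left out of the classes also held respiratory chain RNA. Those under 500 genes had a summed member level of 7824 CPM in library 1 (998 barcodes) and 19861 CPM in library 2 (217 barcodes), above the 3866 and 6304 CPM of excitatory neurons. Barcodes called doublets had 4326 CPM in library 1 and 6742 CPM in library 2. They were flagged because these barcodes enter no comparison of the report.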

How the results depend on the processing

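No paired analysis was possible because each group is 1 library and the libraries are not tied to groups. The summed level of excitatory neurons (5132 CPM pooled) was 5104 with doublets kept, 3866 in library 1, 6304 in library 2, 5436 without 4 nuclear long noncoding RNAs in the denominator, 1693 with free RNA subtracted, 6896 in nuclei of 1000 to 3000 UMIs and 5085 with libraries weighted equally. In parvalbumin interneurons (7797 CPM) it was, in the same order, 7566, 6485, 8975, 8250, 3188 and 8747, with 7617 at clustering resolution 1.5. Clear broad calls (3) became 0 at 1000 genes per nucleus, 15 with doublets kept, 7 at resolution 0.6, 1 in library 1, 29 with free RNA subtracted and 0 when required in each library. Clear subclass calls (9) became 4 at resolution 1.5, 4 in library 1, 2 in library 2, 21 with free RNA subtracted, 1 in nuclei of 1000 to 3000 UMIs and 0 when required in each library. The Cox6a2 share in parvalbumin interneurons (20.2%) was 14.9% at resolution 1.5, 26.6% and 16.9% in the libraries and 40.1% with free RNA subtracted, and its share of nuclei (7.13%) was 3.05% when thinned to 500 UMIs. The complex I share (32.3%) was 33.3% and 31.6% in the libraries. Members higher in parvalbumin than in somatostatin interneurons (24) were 12 in library 2 and 12 in nuclei of 1000 to 3000 UMIs, where the cytosolic ribosomal protein ratio moved from 0.936 to 0.987 and no longer differed from 1. Members above free RNA ranged from 62 to 85. The summed parvalbumin over somatostatin ratio stayed between 1.08 and 1.24 in the settings run for it. These were 1000 genes per nucleus, doublets kept, resolutions 0.6 and 1.5, each library and nuclei of 1000 to 3000 UMIs. With the libraries pooled, the ratio per cytosolic ribosomal protein UMI was 1.23, also in that range. Among these settings it was not run for each library. The summed ratio was not run with free RNA subtracted, without the long noncoding RNAs or with libraries weighted equally. In the depth bin of 1000 to 2000 UMIs in library 1 the order was reversed, with overlapping intervals. Apart from the settings' own construction, the cause of these changes was not tested. Few UMIs per member in astrocytes, microglia and neuroblasts limit what glia can show.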
